A study of Mus musculus with 6 samples.

Results

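Serine protease inhibitors of the serpin family, tissue inhibitors of metalloproteinases (TIMPs) and Kunitz-type inhibitors were examined as a group of 9 genes, Serpinb2, Serpinb6b, Serpinb9, Serpine2, Serpinf1, Timp1, Timp2, Spint2 and Tfpi. They were found by symbol in the authors' deposited table of probe sets that differ by 4-fold or more between primary mouse Sertoli cells and the MSC-1 line, which holds 2291 named genes. These 9 genes have 16 listed probe sets. Serpinf1 is counted among the inhibitors by its serpin family, although it has no inhibitory activity. Because that table was selected on this same contrast, the number of members that pass a test here is a description of the selection and supports nothing.

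Sertoli cells are the somatic cells that nurse germ cells in the seminiferous tubule, and the study asked which genes of aggregated primary Sertoli cells might serve immune protection after transplantation. The first group was 3 samples of aggregated primary Sertoli cells from C57BL/6 x 129 mice. The donors were 10 to 20 days old by the culture protocol, but 19 to 20 days old by the series design text. The second group was 3 samples of aggregated MSC-1 cells, a single Sertoli cell line that derives from a testicular tumour of a mouse with the SV40 large T antigen. Both groups were left to aggregate for 48 h in supplemented Ham's F10 medium with 10% serum, neither was treated, and all 6 samples were read on Affymetrix arrays. Nothing in the labels says that the samples of a group came from separate cultures or animals, so p-values measure the spread between these samples, which may be technical.

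Protease inhibitors set how far secreted and intracellular proteases can act. A serpin presents a loop as bait, is cut by its target and traps it in a covalent complex, a TIMP plugs the zinc site of matrix metalloproteinases, and a Kunitz domain blocks the active site of trypsin-like enzymes without being consumed. In the testis, plasminogen activators and matrix metalloproteinases are known for their part in the remodelling of the tubule during germ cell movement, and a cytotoxic T cell or natural killer cell kills through granzyme B, the target of Serpinb9.

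The values are linear signals per probe set, deposited without a detection call. Array medians ran from 23.0 to 29.8 and array means from 179 to 190. Differences are given as log2(signal + 16), primary minus MSC-1, with their standard error (SE) from limma, fitted to all 45037 probe sets with Benjamini-Hochberg adjustment and a threshold of 0.05. At that threshold 40.9% of all probe sets were called, 19.3% higher in primary cells and 21.6% higher in MSC-1 cells, and with each array centred on its median 35.0% rather than 47.1% of the called probe sets were higher in primary cells. That centring moved the median difference of all probe sets by -0.16 on the log2 scale. All 3198 authors' folds have the sign of the ratio of mean signals, primary over MSC-1, which settles the direction of the authors' deposited table.

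Of the 9 genes, 6 were higher in primary Sertoli cells (Serpinb2, Serpinb6b, Serpinb9, Timp1, Spint2 and Tfpi) and 3 were higher in MSC-1 cells (Serpine2, Serpinf1 and Timp2). Both the TIMPs and the inhibitors of plasminogen activators therefore held members of each direction. All 16 probe sets passed the threshold and in none did the 2 groups overlap. The groups do not overlap in 51.2% of all probe sets, and 3197 of the 3198 probe sets in the authors' list passed the threshold. Over the 2291 named genes, each by its probe set of highest mean level, the median difference was 2.14, and over the 9 inhibitors it was 2.44.

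**Figure D1:**
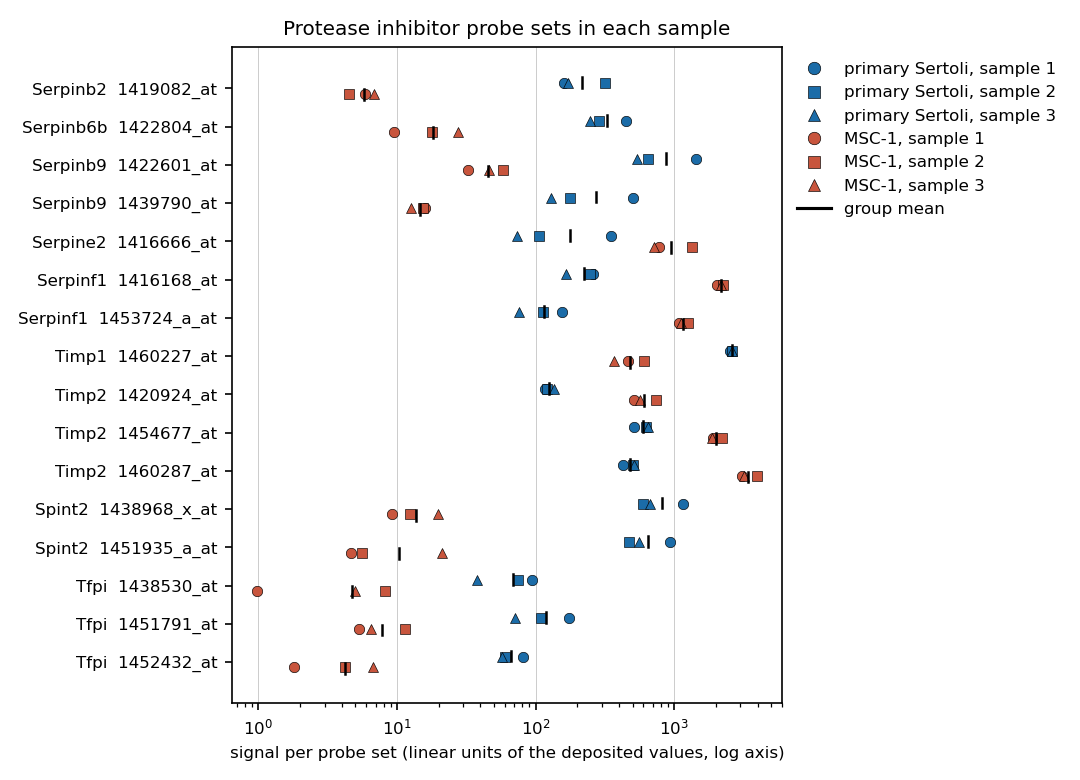
Signal of each of the 16 inhibitor probe sets (linear units on a log axis) in the 3 primary Sertoli samples and the 3 MSC-1 samples, with group means as bars. In no probe set do the groups overlap, and the MSC-1 signals of Serpinb2, Spint2 and Tfpi lie at 21.0 or below.

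The DNA before the transcription start is shown for 2 pairs whose members went opposite ways, the TIMPs and the serpins Serpinb2 and Serpine2. Each line is the 250 bases before the RefSeq start of assembly GRCm38.p6, 5′ to 3′ on the gene's own strand. Capitals mark matches, on either strand, to 3 motifs, namely the TATA box with the letters TATAAA, the GC box with the letters GGGCGG and the AP-1 site with the letters TGANTCA. Overlapping matches are merged. Serpinb2 has a further RefSeq start that is not shown.
Timp1, chrX:20869916-20870165, plus strand: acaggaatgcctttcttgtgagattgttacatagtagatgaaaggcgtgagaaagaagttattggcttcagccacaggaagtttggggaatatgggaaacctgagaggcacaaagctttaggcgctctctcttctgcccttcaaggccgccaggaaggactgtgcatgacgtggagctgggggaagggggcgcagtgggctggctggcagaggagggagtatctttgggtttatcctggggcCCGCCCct
Timp2, chr11:118355412-118355661, minus strand: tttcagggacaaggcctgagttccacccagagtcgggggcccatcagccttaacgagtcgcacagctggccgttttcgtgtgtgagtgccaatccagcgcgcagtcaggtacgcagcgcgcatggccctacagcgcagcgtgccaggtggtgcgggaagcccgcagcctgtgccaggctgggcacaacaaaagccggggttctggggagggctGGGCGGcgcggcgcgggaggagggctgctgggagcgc
Serpinb2, chr1:107511173-107511422, plus strand: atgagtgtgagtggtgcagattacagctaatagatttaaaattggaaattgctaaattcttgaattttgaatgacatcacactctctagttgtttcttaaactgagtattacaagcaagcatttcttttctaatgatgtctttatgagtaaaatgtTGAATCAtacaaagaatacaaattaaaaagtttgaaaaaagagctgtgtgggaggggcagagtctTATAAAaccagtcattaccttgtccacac
Serpine2, chr1:79858666-79858915, minus strand: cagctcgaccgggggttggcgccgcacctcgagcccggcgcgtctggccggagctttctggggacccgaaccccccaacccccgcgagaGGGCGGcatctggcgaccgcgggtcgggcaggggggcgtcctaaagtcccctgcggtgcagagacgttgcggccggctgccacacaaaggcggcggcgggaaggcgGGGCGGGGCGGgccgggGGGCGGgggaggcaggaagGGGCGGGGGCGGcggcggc

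Among 32851 RefSeq promoters of this length, 12.4% hold the TATA box letters, 32.7% the GC box and 6.75% the AP-1 letters. Serpinb2 holds a TATA box and an AP-1 match, while Serpine2 holds 6 GC boxes and neither of the others. Timp1 and Timp2 hold 1 GC box each. CpG pairs numbered 6 for Timp1 and 21 for Timp2, and 0 for Serpinb2 and 34 for Serpine2, against a median of 6 over all promoters. Serpinb6b, Serpinb9 and Tfpi, all higher in primary cells, have 3 CpG pairs each. Spint2, also higher in primary cells, has 24, and the other gene higher in MSC-1 cells, Serpinf1, has 2. Whether CpG number goes with direction was not tested. These matches describe letters of the reference, and binding or methylation was not measured.

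The clade B serpins, which mostly act inside cells, were all higher in primary Sertoli cells. Serpinb9, the mouse inhibitor of granzyme B, had signals of 1443, 649 and 537 in the primary samples and of 32.7, 58.1 and 46.2 in the MSC-1 samples (probe set 1422601_at). All 3 primary samples lay far above the MSC-1 samples, and the difference was 3.74 (SE 0.34, limma adjusted p = 4.62e-05). Its other probe set, 1439790_at, read 507, 177 and 129 in primary cells against 16.02, 15.4 and 12.7 in MSC-1 cells, a difference of 2.997 (SE 0.41, limma adjusted p = 0.000511). In both probe sets the first primary sample was the highest.

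Serpinb6b belongs to a mouse branch of clade B related to human SERPINB6. Its signals were 449, 289 and 246 in primary cells and 9.52, 17.8 and 27.4 in MSC-1 cells. The groups were well apart, with a difference of 3.32 (SE 0.26, limma adjusted p = 2.22e-05). In the RefSeq gene order Serpinb6b and Serpinb9 are adjacent protein-coding genes on chromosome 13, inside a cluster of clade B serpins. Paralogs in this cluster are close in sequence, and cross-hybridisation between them was not tested.

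Serpinb2, also called plasminogen activator inhibitor 2, inhibits urokinase and is known as a stress-induced gene of many cell types. It read 160, 314 and 170 in primary cells and 5.86, 4.52 and 6.85 in MSC-1 cells. Here the second primary sample was the highest, and the MSC-1 signals lay between the 22.4 and 28.6 percentile of their arrays. The difference was 3.35 (SE 0.25, limma adjusted p = 1.61e-05).

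Of 27 clade B genes looked for, these 3 were the ones named in the authors' table. Genes that are not named there, including Serpinb6a and Serpinb1a, were not analysed here and cannot be called unchanged.

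Serpine2, or protease nexin 1, is a secreted inhibitor of thrombin, urokinase and tissue plasminogen activator, and it went the opposite way from Serpinb2. Its signals were 352, 105 and 72.9 in primary cells and 775, 1352 and 710 in MSC-1 cells. The first primary sample stood at 3.95 times the mean of the other 2, yet it remained below every MSC-1 sample. The difference was -2.54 (SE 0.48, limma adjusted p = 0.00303), the weakest of the 16 probe sets by adjusted p. Without the first primary sample it was -3.15, so the fold in signal + 16 was 1.52 times as large. Neither activator gene, Plat or Plau, nor the urokinase receptor gene Plaur was named in the authors' table, so none was analysed here.

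Serpinf1 encodes pigment epithelium-derived factor, a serpin without inhibitory activity that is known as an inhibitor of blood vessel growth. It had the largest difference on the MSC-1 side among the 9 genes. Probe set 1416168_at read 257, 248 and 166 in primary cells and 2042, 2263 and 2187 in MSC-1 cells, a difference of -3.21 (SE 0.16, limma adjusted p = 1.57e-06). Probe set 1453724_a_at read 155, 114 and 76.4 against 1080, 1263 and 1119, a difference of -3.20 (SE 0.21, limma adjusted p = 6.99e-06). The 2 probe sets gave the same size of change, and the MSC-1 samples were close to each other in both.

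The TIMPs split. Timp1, a secreted inhibitor of most matrix metalloproteinases, was higher in primary cells, at 2535, 2621 and 2622 against 464, 606 and 368. The primary samples were nearly equal (2593 ± 49.9, SD, n = 3) and the MSC-1 signals were still at the 88.5 percentile or higher of their arrays, so both groups gave a strong signal. The difference was 2.43 (SE 0.16, limma adjusted p = 8.14e-06).

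Timp2, which also takes part in the activation of pro-MMP2 together with the membrane protease MMP14, was higher in MSC-1 cells in all 3 probe sets. Probe set 1460287_at read 424, 502 and 509 in primary cells and 3065, 3976 and 3205 in MSC-1 cells, a difference of -2.79 (SE 0.13, limma adjusted p = 9.91e-07). Probe set 1420924_at read 117, 121 and 135 against 513, 743 and 563. Its difference was -2.13 (SE 0.15, limma adjusted p = 1.11e-05).

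The smallest of the 3 Timp2 differences was that of probe set 1454677_at, at 514, 624 and 644 in primary cells against 1909, 2216 and 1874 in MSC-1 cells. It came to -1.73 (SE 0.12, limma adjusted p = 9.35e-06). Its ratio of mean signals was 3.37, below the 4-fold limit of the authors' deposited table, where its fold is 4.31. The 3 probe sets agreed in direction and differed in size, from 3.31-fold to 6.92-fold on the offset scale.

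The Kunitz inhibitors were both higher in primary cells. Spint2, also called HAI-2, is a membrane protein of epithelial cells that blocks hepsin, matriptase and the activator of hepatocyte growth factor. It had the largest difference of the 9 genes. Probe set 1451935_a_at read 931, 470 and 556 in primary cells and 4.64, 5.56 and 21.0 in MSC-1 cells, a difference of 4.65 (SE 0.30, limma adjusted p = 6.99e-06). Probe set 1438968_x_at read 1157, 598 and 674 against 9.26, 12.3 and 19.6, a difference of 4.75 (SE 0.25, limma adjusted p = 2.34e-06). The first primary sample was the highest in both, and all MSC-1 signals were below the median of their arrays. The suffix x marks an Affymetrix probe set some of whose probes may also bind other transcripts.

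Tfpi, the inhibitor of the tissue factor and factor VIIa complex that starts clotting, has 3 listed probe sets. Probe set 1451791_at read 175, 109 and 71.0 in primary cells and 5.29, 11.4 and 6.46 in MSC-1 cells, a difference of 2.44 (SE 0.29, limma adjusted p = 0.000202). Probe set 1438530_at read 94.4, 74.7 and 37.9 against 0.972, 8.22 and 4.99, a difference of 1.99 (SE 0.28, limma adjusted p = 0.000621). This call was lost when signals were floored at 32, with a difference of 1.01 (limma adjusted p = 0.117).

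The remaining Tfpi probe set, 1452432_at, read 81.2, 59.9 and 57.5 in primary cells and 1.80, 4.204 and 6.71 in MSC-1 cells. Its difference was 2.02 (SE 0.19, limma adjusted p = 6.13e-05). In all 3 Tfpi probe sets the MSC-1 signals were below the median of their arrays. How far such low signals exceed background is unknown, so the size of the difference depends on the offset.

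**Figure D2:**
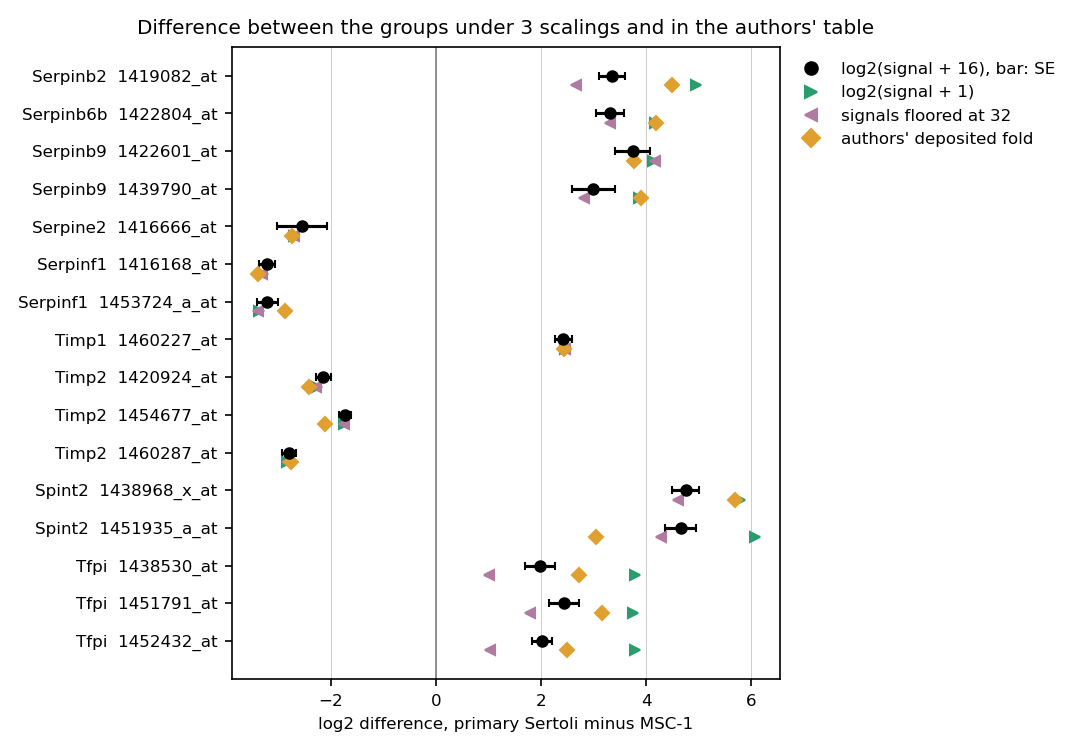
Log2 difference, primary minus MSC-1, of the 16 probe sets, with SE for an offset of 16, and beside it the values with an offset of 1, with signals floored at 32, and the fold of the authors' deposited table on the log2 scale. The 4 values share a sign in all 16 probe sets, and they span the least for Timp1, from 2.43 to 2.47, and the most for Spint2 probe set 1451935_a_at, from 3.05 to 6.06.

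In the 7 inhibitor probe sets whose lower group mean was 64 or more, the ratio of mean signals was 0.781 to 1.38 times the fold of the authors' deposited table. For Timp1 the authors' deposited table gives 5.44-fold and the ratio of means is 5.41. For Spint2 the 2 probe sets have 8.30-fold and 51.3-fold in the authors' deposited table, whereas the ratios of means are 62.7 and 58.9. The same 2 probe sets thus differ widely in the authors' table and little in the signals. For Tfpi the authors' deposited table gives 5.61-fold to 8.97-fold against ratios of 14.6 to 15.6, and for Serpinb2 it gives 22.5-fold against 37.4.

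Over all 3198 probe sets of the authors' deposited table, the ratio of means exceeded the fold by more than 2 times in 31.7%. That share was 63.8% of the 1534 probe sets whose lower group mean was under 16, and 0.408% of the 735 whose lower mean was 64 or more.

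To ask whether related inhibitors changed unequally, the log2 ratio of 2 genes was taken within each sample and compared between the groups by a two-sided exact permutation test over 4 pairs. With 3 samples against 3 the exact permutation test cannot go below p = 0.1, so no pair can pass the threshold. Since Timp1 and Timp2 were listed with opposite directions, their separation was fixed by the choice of genes and is a description. Timp1 over Timp2 was 2.54, 2.35 and 2.33 in primary cells and -2.68, -2.68 and -3.07 in MSC-1 cells. The mean ratios were 2.41 ± 0.11 and -2.81 ± 0.22 (SD, n = 3 each), and the balance of the 2 genes moved by 5.22 on the log2 scale (exact permutation p = 0.1, adjusted p = 0.2).

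Spint2 over Tfpi had a mean log2 ratio of 2.33 ± 0.38 in primary cells and of 0.11 ± 0.55 in MSC-1 cells (SD, n = 3 each), a difference of 2.22 (exact permutation p = 0.1, adjusted p = 0.2). That difference was 2.32 with an offset of 1 and 2.49 with signals floored at 32. In the authors' deposited table the same 2 probe sets have the other order, 8.30-fold for Spint2 and 8.97-fold for Tfpi. Both genes had low signals in MSC-1 cells, where signal over background is unknown, so which of them changed more cannot be told. Serpinb9 and Serpinb6b differed in their change by 0.42 (exact permutation p = 0.3, adjusted p = 0.4). With an offset of 1 that difference was -0.030, so its sign depends on the offset. Serpine2 and Serpinf1 differed by 0.66 (exact permutation p = 0.4, adjusted p = 0.4). A p above the threshold does not show that the genes of a pair changed alike.

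**Figure D3:**
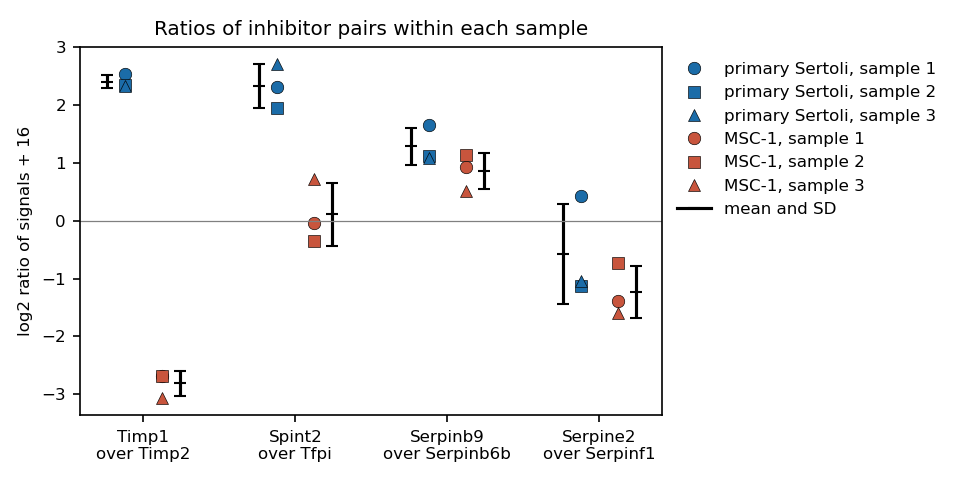
Log2 ratio of 2 inhibitor genes within each sample (signals + 16) for 4 pairs, with mean and SD beside the 3 samples of each group. Timp1 over Timp2 runs from 2.33 to 2.54 in primary cells and from -3.07 to -2.68 in MSC-1 cells, while the groups overlap for Serpinb9 over Serpinb6b and for Serpine2 over Serpinf1.

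Within the primary group, the first sample set several inhibitors apart. It was the highest primary sample in 11 of the 16 probe sets, covering every probe set of Serpinb6b, Serpinb9, Serpine2, Serpinf1, Spint2 and Tfpi. Over all probe sets the first sample was the highest in 38.1%. It was at least 1.5 times both other primary samples in 7 of the 16 probe sets and in 13.8% of all probe sets. Timp1, Timp2 and Serpinb2 did not follow, with the first sample at 0.967, at 0.810 to 0.916 and at 0.660 times the mean of the other 2. Such a skew was not particular to the primary group. The second MSC-1 sample was the highest of its group in 10 of the 16 probe sets, covering every probe set of Serpine2, Serpinf1 and Timp2. It was the highest in 35.0% of all probe sets and in 39.0% of those in the authors' table.

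The first primary array also correlated less with the others over all probe sets (Pearson r of 0.965 and 0.968) than these did with each other (0.987), and r among the MSC-1 arrays ran from 0.985 to 0.989. Without that sample all 16 probe sets kept their direction and their place past the threshold.

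**Figure D4:**
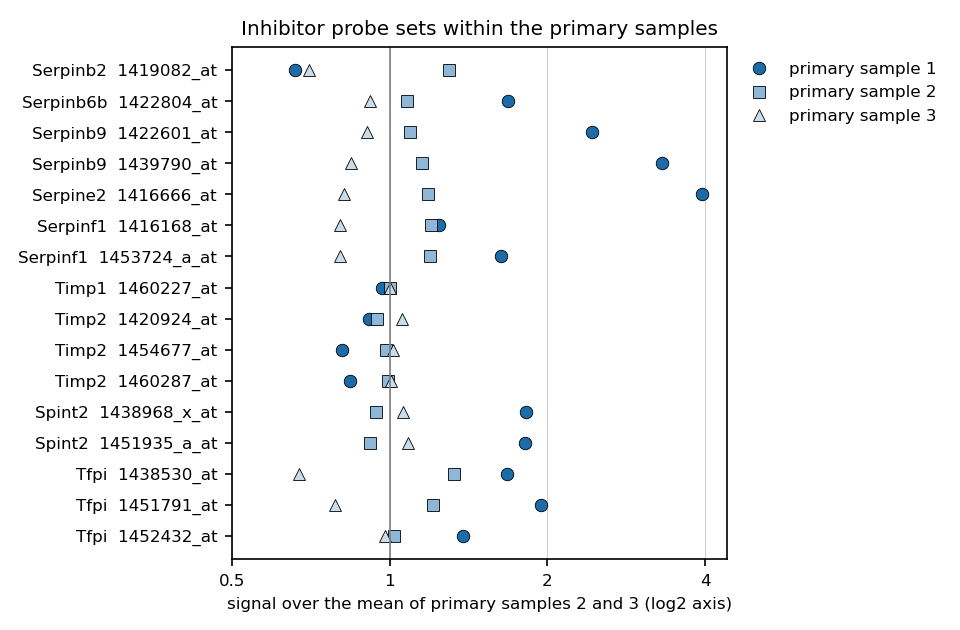
Signal of each inhibitor probe set in the 3 primary samples, divided by the mean of primary samples 2 and 3 (log2 axis). Sample 1 reaches 3.95 for Serpine2 and 3.31 for Serpinb9, and lies at 0.967 for Timp1.

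Markers of other cell types differed with the groups and within them, and their part in the inhibitor differences was not tested. Of 25 germ cell markers, 11 were named in the authors' table, all higher in primary cells, with a summed signal of 5349 to 7042 there and of 206 to 280 in MSC-1 cells. Of 12 macrophage and leukocyte markers, 3 were named, with sums of 578 to 997 against 35.0 to 74.3. Of 10 smooth muscle and peritubular markers, 5 were named, 4 of them higher in primary cells (Acta2, Tagln, Myl9 and Tpm2) and Mylk higher in MSC-1 cells. The 4 summed to 2885, 1555 and 1591 in the primary samples and to 95.6 to 124 in MSC-1 cells, while Mylk read 287 to 540 in primary cells and 1974 to 2581 in MSC-1 cells. Within the primary group all 5 were highest in the first sample. Of the 11 germ cell markers 1 was highest there, with sums of 5349, 7042 and 6980 in the 3 primary samples. Of the 3 macrophage and leukocyte markers 1 was, with sums of 578, 708 and 997.

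Of 24 Sertoli cell markers, 8 were named, 7 of them higher in primary cells and Trf higher in MSC-1 cells. The 7 summed to 7750 to 8356 in primary cells and to 475 to 665 in MSC-1 cells, while Trf read 370 to 554 in primary cells and 3503 to 4508 in MSC-1 cells. Sox9, which fixes Sertoli cell fate, read 131 to 244 in primary cells and 28.1 to 39.7 in MSC-1 cells. Of the 8 named Sertoli cell markers, 3 were highest among the primary samples in the first one. Of 10 Schwann cell and neural crest markers, 8 were named, and all were higher in MSC-1 cells. They summed to 8888 to 12510 there and to 295 to 627 in primary cells. Within the primary group 6 of these 8 were highest in the first sample, with sums of 627, 332 and 295 in the 3 samples. No named marker was at 0 in any sample, but without a detection call a low signal does not show expression. Fcgr3, for one, read 0.581, 0.606 and 0.724 in the MSC-1 samples. The endothelial list had none of its 10 markers named. Of 8 Leydig markers 2 were named, Star higher in primary cells and Akr1cl higher in MSC-1 cells. Markers that were not named were not analysed. In these bulk samples, fewer cells of a type and less RNA per cell cannot be told apart.

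Of 139 protease inhibitor genes looked for, 14 were named in the authors' table. Of these, 11 passed the threshold as higher in primary cells and 3 as higher in MSC-1 cells. The latter were Serpine2, Timp2 and Serpinf1, the serpin without inhibitory activity. The other 5 genes beside the 9 were all higher in primary cells. They included Serping1, the Kazal inhibitor Spink2, the cystatin Cst12 and the WAP-domain gene Wfdc15a. Over the 2291 named genes, 1422 passed as higher in primary cells and 868 as higher in MSC-1 cells.

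Serping1, the C1 inhibitor, read 1337, 738 and 429 in primary cells and 8.09, 8.50 and 6.68 in MSC-1 cells (difference 5.02, SE 0.34, limma adjusted p = 9.67e-06). Spink2, an inhibitor known from germ cells and their acrosome, read 1597, 1933 and 2081 against 11.4, 9.42 and 10.9. Cst12, a cystatin of Sertoli cells, read 661, 2318 and 1891 against 7.32, 10.6 and 23.9. In both of these the first primary sample was the lowest.

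Of 105 proteases, receptors and cofactors that act with these inhibitors, 8 were named in the authors' table, 5 higher in primary cells and 3 higher in MSC-1 cells. Thbd, or thrombomodulin, which turns thrombin to the activation of protein C, read 316, 327 and 284 in primary cells and 6.00, 6.11 and 5.86 in MSC-1 cells (difference 3.88, SE 0.14, limma adjusted p = 3.45e-07). Procr, the receptor of protein C, read 338, 302 and 192 against 1.53, 0.602 and 0.975 (difference 4.07, SE 0.22, limma adjusted p = 2.55e-06). Both anticoagulant genes thus lay on the side of Tfpi, while Serpine2, an inhibitor of thrombin, lay on the MSC-1 side (difference -2.54). The tissue factor gene F3 was not named and so was not analysed.

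Mmp14, the membrane metalloproteinase that binds TIMP-2, was higher in primary cells, at 677, 282 and 233 against 60.6, 68.0 and 61.4, and so lay on the side opposite to Timp2. Mmp15, a related membrane metalloproteinase, was higher in MSC-1 cells, at 73.2, 107 and 77.1 against 6.15, 1.26 and 1.38 in primary cells (probe set 1422597_at). Mmp19 was also higher in MSC-1 cells, and Adamts9 was higher in primary cells in both of its probe sets. The differences were 2.23 for Mmp14 (SE 0.34), -2.42 for Mmp15 (SE 0.20), -1.08 for Mmp19 (SE 0.24) and 2.44 and 2.35 for Adamts9 (SE 0.24 and 0.20).

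Epcam, an epithelial adhesion protein cut by matriptase, a target of Spint2, read 959, 210 and 251 in primary cells and 2.70, 2.25 and 0.835 in MSC-1 cells. It was highest in the first primary sample. Vldlr, a receptor that takes up complexes of serpins and their targets, was higher in MSC-1 cells, at 315, 336 and 360 against 76.1, 111 and 134. None of the 20 granule proteases and related genes looked for was named, granzyme B included. They were therefore not analysed here and cannot be called absent or unchanged.

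Among the other 2290 named genes, those with the pattern nearest to Spint2 over the 6 samples were Loxl1, Bgn and Smoc2, at Euclidean distances of 0.59, 0.64 and 0.67 between log2 values centred on each gene's mean. Those nearest to Timp2 were Coro2b, Vegfc and Pacs2, at 0.25, 0.29 and 0.31. Such a distance depends both on the size of the difference between the groups and on the spread within them. Bgn, for one, had a difference of 4.72 against 4.65 for Spint2.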

How the data were processed

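RNA from 3 aggregated primary Sertoli cell samples and 3 aggregated MSC-1 samples was measured on 1-colour Affymetrix arrays. Per the labels' protocols, biotin-labelled cRNA was made from 10 ug of total RNA. The submitters' processing notes name GCOS, Affymetrix's array software, without a version or a stated role. The authors' scaling between arrays is not stated there or in any label. The authors deposited a linear signal intensity per probe set, and a table of signed fold changes of 4 or more for 3198 probe sets, besides 8 blank rows. The number of arrays limits the precision.

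From the intensities, log2(value + 16) was computed without further scaling, 64 control probe sets were left out, and limma (lmFit and eBayes with trend, version 3.58.1, R 4.3.3) was fitted to 45037 probe sets. The fit was tested on simulated data. Ratios of 2 genes within a sample were compared by exact permutation over the 6 samples. Gene names come from the authors' deposited table, where 3069 probe sets have 1 symbol, 79 several and 50 none. Of 2332 symbols, 115 could not be matched to RefSeq GRCm38.p6 and were left as they stood, 338 were updated from a synonym and 65 from another letter case. A gene with several probe sets is represented by that of highest mean level, avoiding those with suffix x_at or s_at. Named are all 9 genes with every probe set, up to 3 called genes per subgroup and direction of the inhibitor and protease lists together with a preset list of related genes, and the 3 genes nearest to Spint2 and to Timp2, except that some single-gene values are left out here. The members and lists were chosen with earlier results of these data known. The replicate numbers were not treated as pairs, except in the replicate block named below. Alternatives tried were other normalizations, offsets, a floor, a filter on low values, a replicate block, eBayes without trend, leaving out each sample, another representing probe set, a 4-fold requirement and, added after the data were seen, the authors' folds. Tables were handled in Python 3.11.15 with pandas 2.3.3 and numpy 2.4.6.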

Additional observations from a re-analysis of the deposited data

How the results depend on the processing

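All 16 inhibitor probe sets kept their direction under all 13 refits. The authors' folds have the same direction, but the probe sets were chosen from the authors' deposited table, so this is no check. In the refits 1 call was lost, that of Tfpi probe set 1438530_at with signals floored at 32. With that floor 5591 rather than 8676 probe sets were called as higher in primary cells, and the cause was not tested. The difference in change between Serpinb9 and Serpinb6b was -0.030 with an offset of 1 and 0.42 with 16. For probe sets with low MSC-1 signals the offset set the size: Serpinb2 went from 2.67 with the floor to 4.94 with an offset of 1. Leaving out each sample in turn moved the group difference in the log2 ratio of Timp1 and Timp2 between 5.09 and 5.28, that of Spint2 and Tfpi between 1.99 and 2.52, that of Serpinb9 and Serpinb6b between 0.24 and 0.56 and that of Serpine2 and Serpinf1 between 0.16 and 0.94. The counts of inhibitor genes were 11 and 3 under every alternative run. These genes were taken from the authors' 4-fold list, so the constant counts describe that selection and are no check. With the replicate number as a block, 17204 rather than 18418 probe sets were called. The pairs' differences are equal with and without that block by arithmetic, so their equality is no check. Samples of the same number did not deviate together (r of -0.06, -0.09 and 0.06). These values cannot show whether such samples were handled together. Signal over background is unknown, which limits what can be said of low signals.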
